A study of Mus musculus with 6 samples.

Results

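Genes of cholesterol and fatty acid synthesis and of sterol export were followed in the retina of newborn mice that lacked Meg2 and of wild-type controls. The set was a list of 36 gene symbols, of which 34 were each read by at least 1 transcript cluster (the group of probes that covers a transcript) carrying that symbol alone. Where a gene had several such clusters, the one with the highest mean over the 6 arrays stood for it. These 34 genes are 34 of 23410 clusters tested. Acat2 (acetoacetyl-CoA thiolase) and Nr1h2 (the nuclear receptor LXR beta) had no cluster that met this rule and were not analysed here. By role, 17 genes encode enzymes of sterol synthesis, 6 belong to fatty acid synthesis, and 5 to sterol export and its receptor. The other 6 encode the transcription factors of the pathway, their regulators or a sterol carrier under their control. The list does not cover every gene of these pathways.

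The knockout group held 3 Meg2 knockout samples and the control group 3 Meg2 wild-type samples, all on the C57BL/6NTac background and all taken at postnatal day 0 (P0). Meg2 is a phosphatase with a lipid-binding SEC14-type domain, and its gene is Ptpn9. Per the labels, both retinae of an animal made up a sample, and the labels name neither the allele nor the deleted part of the gene. Signal was measured on Affymetrix Mouse Gene 1.0 ST arrays as normalised log2 values, so a difference of 1 is a doubling, and every difference below is knockout minus wild type.

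Mammalian cells make cholesterol from acetyl-CoA through mevalonate and squalene. When sterols run low in the endoplasmic reticulum, the proteins SCAP and SREBP move to the Golgi, where SREBP is cut, and the freed factor turns on genes of sterol and fatty acid synthesis. INSIG proteins hold SCAP back when sterols are plentiful. Oxidised sterols bind the LXR receptors, which turn on genes for sterol export such as Abca1 and Abcg1, and also Srebf1. In the retina, Muller glia are known for making and exporting lipid particles that carry apolipoprotein E.

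The promoters of these genes were searched for letters that the 2 factor families bind. Few of them held a sterol regulatory element or an LXR type repeat. The 3 promoters shown belong to genes that lead the comparisons below or carry such a motif. RefSeq promoters (GRCm38.p6, 250 bases before to 50 after an annotated start) were at hand for 29 of the 36 listed genes. The lines give the 250 bases before the start, read in the direction of the gene. In Abca1 the capitals mark a direct repeat of the LXR type on the opposite strand. In Hmgcs1 the run of 9 capitals is a sterol regulatory element and the runs of 5 are CCAAT boxes on the opposite strand, the letters bound by NF-Y, a partner of SREBP. In Mvk the capitals are CCAAT boxes on either strand.
Abca1, chr4:53159896-53160145, minus strand: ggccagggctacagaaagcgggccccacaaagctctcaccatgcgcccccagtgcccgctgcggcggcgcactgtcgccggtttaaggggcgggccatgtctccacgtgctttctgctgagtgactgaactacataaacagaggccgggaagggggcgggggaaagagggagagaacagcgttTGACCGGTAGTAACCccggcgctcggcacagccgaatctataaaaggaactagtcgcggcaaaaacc
Hmgcs1, chr13:119690101-119690350, plus strand: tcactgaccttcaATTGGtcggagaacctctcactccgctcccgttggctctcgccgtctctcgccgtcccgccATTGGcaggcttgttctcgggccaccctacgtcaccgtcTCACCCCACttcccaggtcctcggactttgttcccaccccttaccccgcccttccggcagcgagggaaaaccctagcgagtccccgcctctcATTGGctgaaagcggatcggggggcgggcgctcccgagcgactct
Mvk, chr5:114444019-114444268, plus strand: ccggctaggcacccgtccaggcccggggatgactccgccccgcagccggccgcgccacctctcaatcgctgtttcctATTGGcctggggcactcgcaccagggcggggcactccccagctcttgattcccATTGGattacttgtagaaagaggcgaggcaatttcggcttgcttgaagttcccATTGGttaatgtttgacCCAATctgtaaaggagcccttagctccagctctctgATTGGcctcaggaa

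Across both strands of the 300-base windows, CCAAT was present for 14 of 15 sterol synthesis genes (93.3%), for 1 of 5 export and LXR genes (20%) and for 11096 of 27025 genes in the whole promoter table (41.1%). The sterol regulatory element, searched as TCACNCCAC, was present in Hmgcs1 alone among the listed genes and in 1.44% of all genes. The LXR type repeat, searched in a loosened form as 2 copies of GGTNA in the same direction with 5 free letters between them, was found in 0.818% of all genes and in 3 listed ones, each time on the strand opposite to the gene. Abca1 (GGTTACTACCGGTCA) and Fasn (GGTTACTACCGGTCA, promoter chr11:120824498-120824797, minus strand) held the same 15 letters. Srebf1 held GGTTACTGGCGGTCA at 1 of its 3 starts (chr11:60210422-60210721, minus strand). CACGTG, the E-box, was present for 6 of 29 listed genes and for 8.09% of all genes. No matches of different motifs overlapped in the listed promoters. A match is a run of letters and not a measured binding site, and a gene with several starts counted once if any start matched.

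The genotype labels were checked first. Ptpn9 signal was 9.31, 9.58 and 9.28 on the knockout arrays, against 10.05, 9.93 and 9.94 on the wild-type arrays, a difference of -0.58 (SE 0.087, limma, adjusted p = 0.437). Both arrays of replicate 2 carried Xist (12.54 for knockout and 12.55 for wild type) beside the Y-linked gene Uty (7.18 and 7.67), while Uty read 5.22 and 4.71 on the replicate 1 arrays and 9.53 and 9.34 on those of replicate 3. Xist read 12.58 and 12.73 on the replicate 1 arrays and 6.26 and 6.52 on those of replicate 3. Sex-linked signal thus went with the replicate number in both genotypes. Xist and Y-linked signal on the same array go against the labels' account of 1 animal per sample. What a replicate is, an animal or a pool, is therefore not settled, and p-values measure only the spread between these samples. Without the 2 arrays of replicate 2, the median difference of the sterol synthesis enzymes described below was -0.13, with 15 of 17 below 0, and that of the 4 LXR targets 0.23. Of 14 markers of newborn neural retina, 11 were measured, with mean signals between 10.39 and 13.14, and median signal per array lay between 7.84 and 7.91. With 3 arrays per genotype, the number of arrays limits the precision of each value. In a tissue sample, fewer cells of a type and less RNA per cell cannot be told apart.

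The data show small opposite differences in the listed sterol synthesis enzymes and the listed LXR targets, with no gene past correction. Signal of 16 of 17 sterol synthesis enzymes was lower in the knockout, with a median difference of -0.13. Signal of all 4 measured LXR targets for export and uptake control (Abca1, Abcg1, Apoe and Mylip) was higher, with a median of 0.18, beside 50.7% of all clusters above 0. Fatty acid genes lay lower in 5 of 6, with a median of -0.084. The group of SREBP genes and regulators was centred near 0, with a median of -0.023. Over all 23410 clusters 49.3% lay below 0 and the median was 0.0012. At an adjusted p under 0.05, limma called 0 of the 34 genes and 0% of all clusters, and each of the 34 had an adjusted p of 1.0 after rounding. A limma fit with the replicate number as a blocking factor called 0 of the 34 (smallest adjusted p = 0.514) and 0.00427% of all clusters. At an unadjusted p under 0.05, limma without the block had 2 of the 34 lower (5.88%), against a background of 1.74%, and 1 higher (2.94%), against 1.69%. In that blocked fit 9 were lower (26.5%, background 4.36%) and 3 higher (8.82%, background 4.46%).

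**Figure D1:**
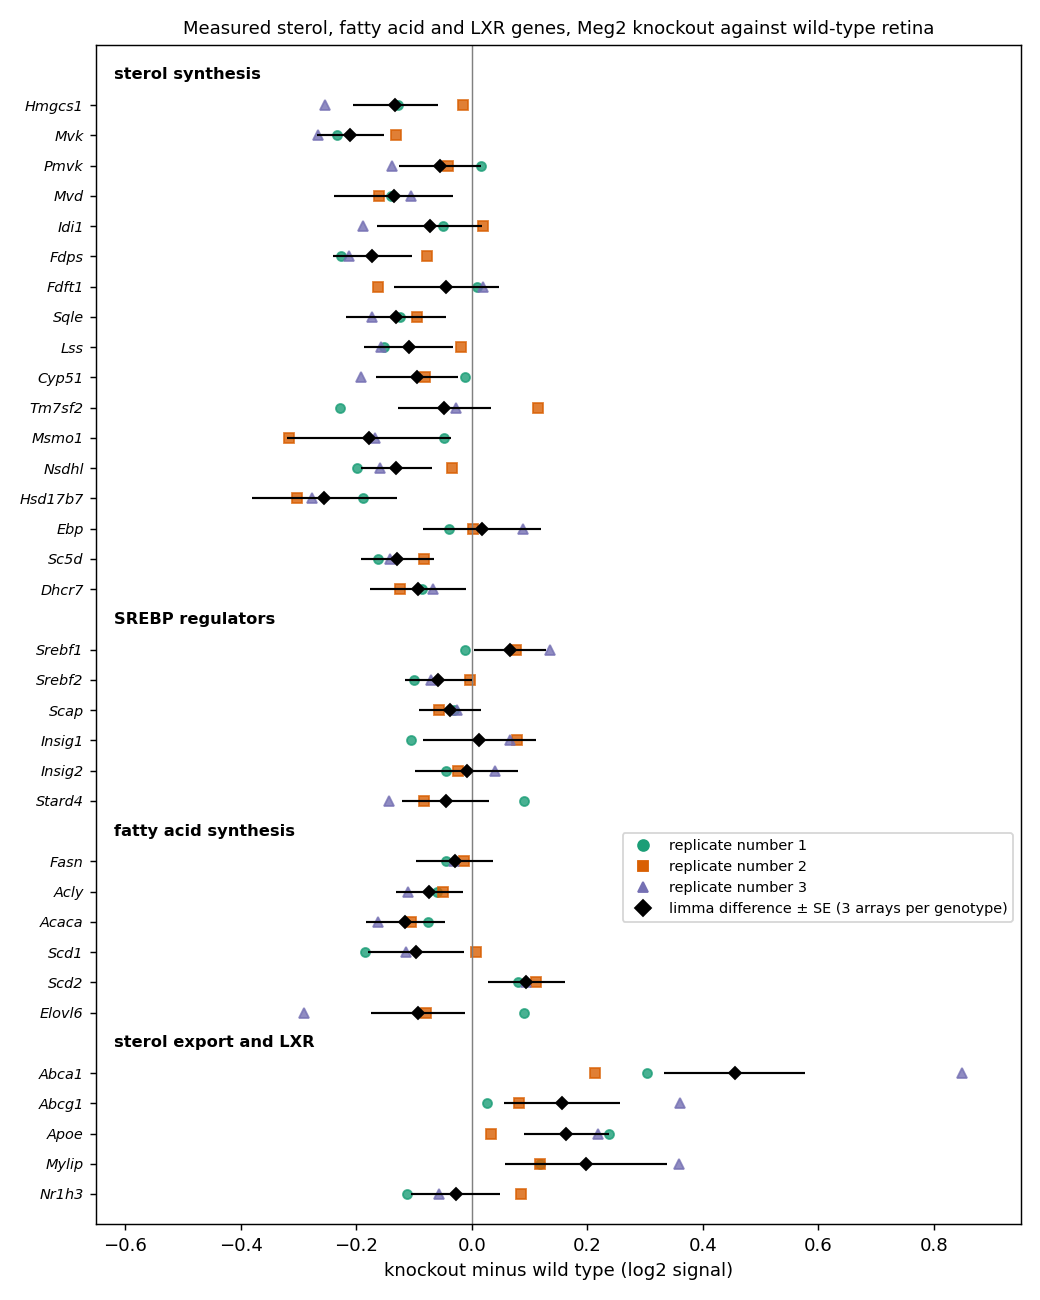
Difference between knockout and wild-type log2 signal (x axis) for each of the 34 measured genes (y axis, by role). Black diamonds with bars are limma differences with their SE, and coloured marks are the differences within replicate numbers 1 to 3. Marks of the sterol synthesis enzymes lie mostly left of 0, and those of Abca1, Abcg1, Apoe and Mylip all lie right of it.

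Sterol synthesis begins with the mevalonate branch, in which all 7 measured enzymes up to squalene had lower signal in the knockout, with a median of -0.13. Mevalonate kinase (Mvk), which phosphorylates mevalonate, read 10.25, 10.29 and 10.27 in the knockout, against 10.48, 10.42 and 10.54 in the wild type. Every knockout array lay below every wild-type array, and the arrays of each genotype lay close together. The difference was -0.21 (SE 0.058), or 0.864 of the wild-type signal, with an unadjusted p of 0.00563 and an adjusted p of 1.0 (limma). Farnesyl diphosphate synthase (Fdps), which builds the 15-carbon precursor of squalene, read 11.15, 11.16 and 11.23 in the knockout, against 11.38, 11.24 and 11.45 in the wild type. Its groups did not overlap, although the highest knockout and the lowest wild-type array lay next to each other. The difference was -0.17 (SE 0.068, limma, adjusted p = 1.0). Without wild-type replicate 3 it was -0.13.

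Hmgcs1, the synthase that makes HMG-CoA, differed by -0.13 (SE 0.074), and the decarboxylase gene Mvd by -0.14 (SE 0.10). Within replicate numbers 1, 2 and 3 Hmgcs1 differed by -0.128, -0.0157 and -0.254, and Mvd by -0.14, -0.161 and -0.105. In fits without the replicate block, the Hmgcs1 difference was -0.069 without wild-type replicate 3. That of Mvd was -0.056 without knockout replicate 2, -0.059 without wild-type replicate 3 and -0.23 without knockout replicate 3. Smaller values belonged to phosphomevalonate kinase (Pmvk, -0.055), the isopentenyl diphosphate isomerase gene Idi1 (-0.073) and squalene synthase (Fdft1, -0.045), and each of the last 3 was higher in the knockout in at least 1 replicate number. Fdft1 read 12.04, 11.88 and 12.21 in the knockout, against 12.03, 12.04 and 12.19 in the wild type, so that its groups lay on top of each other. Its second cluster gave -0.10 and that of Idi1 -0.067. The Fdft1 value turned to 0.038 without knockout replicate 2 and to 0.0076 without wild-type replicate 3.

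After squalene, 9 of 10 enzymes had lower signal in the knockout, with a median of -0.12. Hsd17b7, a ketoreductase that acts when the methyl groups at carbon 4 are removed, had the lowest difference of the 34 genes and was singled out after its values were seen. It read 9.63, 9.35 and 9.77 in the knockout, against 9.82, 9.65 and 10.04 in the wild type. The groups overlapped, yet in each replicate number the knockout lay below the wild type, by 0.19, 0.30 and 0.28 log2 units. The difference was -0.26 with an SE of 0.13 (limma, adjusted p = 1.0). With the replicate block its unadjusted p was 0.00139 and its adjusted p 0.514 (limma). Without knockout replicate 2 the difference was -0.14 and without wild-type replicate 3 it was -0.15.

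Nsdhl, the dehydrogenase of the same demethylation complex, read 11.17, 11.26 and 11.26 in the knockout, against 11.37, 11.30 and 11.42 in the wild type. Sc5d, which introduces the double bond at carbon 5, read 9.61, 9.71 and 9.74 in the knockout, against 9.78, 9.79 and 9.89 in the wild type. In both genes all knockout arrays lay below all wild-type arrays by a narrow margin, and both differences were -0.13 (SE 0.061 and 0.063). Msmo1, the methylsterol oxidase, differed by -0.18 with the largest SE of the 34 genes (0.14), as its knockout arrays ran between 10.24 and 10.77 and its wild-type arrays between 10.55 and 10.94. Without knockout replicate 2 the Msmo1 difference was -0.020, without wild-type replicate 3 -0.074 and without knockout replicate 3 -0.29. Squalene epoxidase (Sqle), a rate-controlling step, differed by -0.13 (SE 0.087) and was lower in each replicate number, though its difference was -0.065 without wild-type replicate 3, -0.073 without knockout replicate 2 and -0.21 without wild-type replicate 2. Lanosterol synthase (Lss), Cyp51, Dhcr7, which makes cholesterol from 7-dehydrocholesterol, and Tm7sf2 differed by -0.11, -0.095, -0.093 and -0.048. Their values nearest to 0 with a single array left out were -0.045 for Lss (knockout replicate 1), -0.029 for Cyp51 (wild-type replicate 3) and -0.024 for Dhcr7 (knockout replicate 2), and Tm7sf2 turned to 0.023 (knockout replicate 1). Msmo1, Lss, Cyp51 and Dhcr7 were lower in the knockout in each replicate number, Dhcr7 by -0.087, -0.125 and -0.067. Tm7sf2 was higher in number 2 (0.114). The isomerase gene Ebp was the 1 enzyme above 0, at 0.017 (SE 0.10).

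Arrays of the same replicate number deviated together, so the enzymes were also compared within each number. Within number 1, 15 of 17 enzymes were lower in the knockout, within number 2, 14 of 17, and within number 3, 15 of 17, against 49.3%, 50.3% and 48.7% of all clusters. The median differences within the numbers were -0.13, -0.081 and -0.16. Knockout lay below wild type in all 3 numbers for 12 of the 17 enzymes (70.6%), against 15.9% of all clusters. The arrays of the 2 genotypes did not overlap, with the knockout lower, for 4 of the 17 (23.5%), against 4.35% of all clusters. Genes read on the same 6 arrays are not independent observations, and these shares were not tested. Relative to each gene's mean over the 6 arrays, the enzymes averaged -0.087, -0.12 and 0.028 in the knockout, against 0.030, -0.026 and 0.17 in the wild type. The array means thus overlapped between genotypes, with wild-type replicate 3 highest and knockout replicate 2 lowest. Without wild-type replicate 3 the median was -0.066 with 14 of 17 below 0, and without knockout replicate 2 it was -0.073 with 15 of 17.

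**Figure D2:**
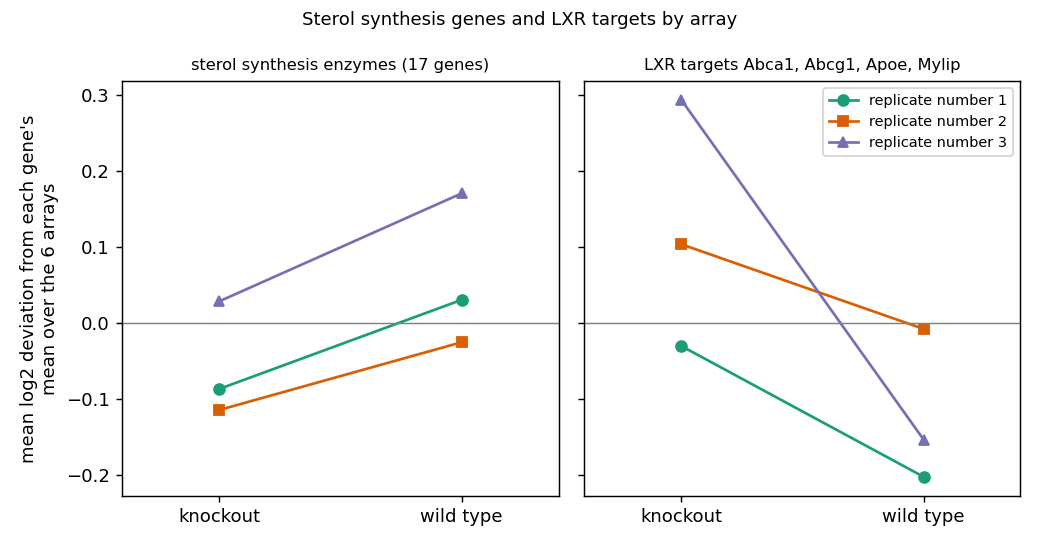
Mean log2 deviation from each gene's own mean over the 6 arrays (y axis) for the 17 sterol synthesis enzymes (left panel) and the 4 LXR targets (right panel), in knockout and wild-type arrays (x axis). Lines join arrays of the same replicate number: the enzymes are lower in the knockout within each number, and the LXR targets are higher.

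In the group of SREBP genes and regulators, 4 of 6 lay below 0 and none reached an unadjusted p under 0.05 (limma). Srebf2, which encodes the SREBP form that mainly serves sterol synthesis, read 12.01, 12.11 and 12.09 in the knockout, against 12.11, 12.12 and 12.15 in the wild type (difference -0.058, SE 0.058). Srebf1, whose products mainly serve fatty acid synthesis, read 10.57, 10.69 and 10.73 in the knockout, against 10.58, 10.61 and 10.59 in the wild type (difference 0.066, SE 0.062). Both differences were about the size of their SE and both pairs of groups overlapped. Insig1, itself an SREBP target and the retention factor of SCAP, read 11.75, 12.12 and 11.97 in the knockout, against 11.85, 12.04 and 11.91 in the wild type. Its difference of 0.013 (SE 0.098) took both signs when single arrays were left out, between -0.073 and 0.11.

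Scap, the escort of SREBP, read 11.50, 11.46 and 11.49 in the knockout, against 11.53, 11.52 and 11.52 in the wild type. The groups did not overlap, but the difference was -0.038, below its SE of 0.053. Insig2, the second retention factor, differed by -0.0091 (SE 0.090), and Stard4, a soluble sterol carrier under SREBP control, by -0.045 (SE 0.076). The abundance of these transcripts does not measure cleavage of SREBP, which was not assayed.

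In fatty acid synthesis, 5 of 6 genes had lower signal in the knockout. None reached an unadjusted p under 0.05 without the block (limma, 0 of 6, against 3.43% of all clusters in either direction). With the replicate block 1 of 6 did (16.7%, against 4.36% of all clusters lower). This was Acaca, with an unadjusted p of 0.0458 and an adjusted p of 0.556 (limma). Acly, which makes cytosolic acetyl-CoA from citrate, read 11.78, 11.82 and 11.84 in the knockout, against 11.84, 11.87 and 11.95 in the wild type. The groups touched without overlapping, with a difference of -0.074 (SE 0.058). Acetyl-CoA carboxylase 1 (Acaca), which makes malonyl-CoA, differed by -0.12 (SE 0.068) in its brightest cluster and by -0.039 (SE 0.11) in its other one. Fatty acid synthase (Fasn) differed by -0.030 (SE 0.066), Elovl6, which elongates palmitate, by -0.093 (SE 0.082) and the desaturase gene Scd1 by -0.097 (SE 0.083). These values moved with single arrays: without wild-type replicate 3 Acly was at -0.043, Acaca at -0.064, Elovl6 at -0.018 and Fasn at 0.013, and without knockout replicate 1 Scd1 was at -0.014.

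Scd2, the desaturase gene known to prevail over Scd1 in mouse brain, went the other way. It read 13.57, 13.63 and 13.73 in the knockout, against 13.50, 13.52 and 13.63 in the wild type. The groups overlapped, but the knockout was higher in each replicate number, by 0.079, 0.11 and 0.093. The difference was 0.094 (SE 0.067, limma, adjusted p = 1.0), or 0.054 without knockout replicate 3, and it was not tested against that of Scd1.

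Among the sterol export genes, the largest difference of the 34 genes belonged to Abca1, which moves cholesterol and phospholipid out of the cell to apolipoproteins. Abca1 read 8.71, 8.76 and 9.19 in the knockout, against 8.41, 8.55 and 8.34 in the wild type. All knockout arrays lay above all wild-type arrays, and knockout replicate 3 stood well above the other two. The difference was 0.46 (SE 0.12), or 1.37-fold, with an unadjusted p of 0.00495 and an adjusted p of 1.0 (limma). Without knockout replicate 3 it was 0.30, and without both replicate 2 arrays 0.58. Abca1 was the only one of the 34 genes with knockout arrays above all wild-type arrays, 2.94% against 4.08% of all clusters.

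Apoe, the lipid carrier of the neural tissue, read 11.93, 11.74 and 11.98 in the knockout, against 11.70, 11.70 and 11.76 in the wild type. Knockout replicate 2 lay just under the highest wild-type array, and the difference was 0.16 (SE 0.074, limma, adjusted p = 1.0). Abcg1, which passes cholesterol on to lipoprotein particles, and Mylip, the ubiquitin ligase IDOL that marks lipoprotein receptors for breakdown, fall outside the rule for full values and were added after their values were seen. Abcg1 read 10.79, 11.03 and 11.18 in the knockout, against 10.76, 10.95 and 10.82 in the wild type (difference 0.16, SE 0.10). Without knockout replicate 3 its difference was 0.066. Mylip read 9.63, 10.08 and 10.01 in the knockout, against 9.51, 9.96 and 9.65 in the wild type (difference 0.20, SE 0.14). The spread of Mylip within a genotype (SD 0.24 over knockout and 0.23 over wild-type arrays, n = 3 each) exceeded its difference, which was 0.099 without wild-type replicate 1, 0.11 without knockout replicate 2, 0.34 without knockout replicate 1 and 0.32 without wild-type replicate 2. Within replicate numbers 1, 2 and 3 the Mylip difference was 0.12, 0.12 and 0.36. With the replicate block its SE was 0.063 and its adjusted p 0.52 (limma).

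All 4 LXR targets were higher in the knockout in each of the 3 replicate numbers, against 16.5% of all clusters. Nr1h3, the gene of the receptor LXR alpha, did not share this: it read 7.70, 7.63 and 7.60 in the knockout, against 7.81, 7.54 and 7.66 in the wild type (difference -0.028, SE 0.077). Its sign turned to 0.041 without wild-type replicate 1. Srebf1 and Fasn, whose promoters carry the same type of repeat as Abca1, differed by 0.066 (SE 0.062) and -0.030 (SE 0.066). Both differences were about the size of their SE or smaller. A link between the repeat and the differences was not tested.

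**Figure D3:**
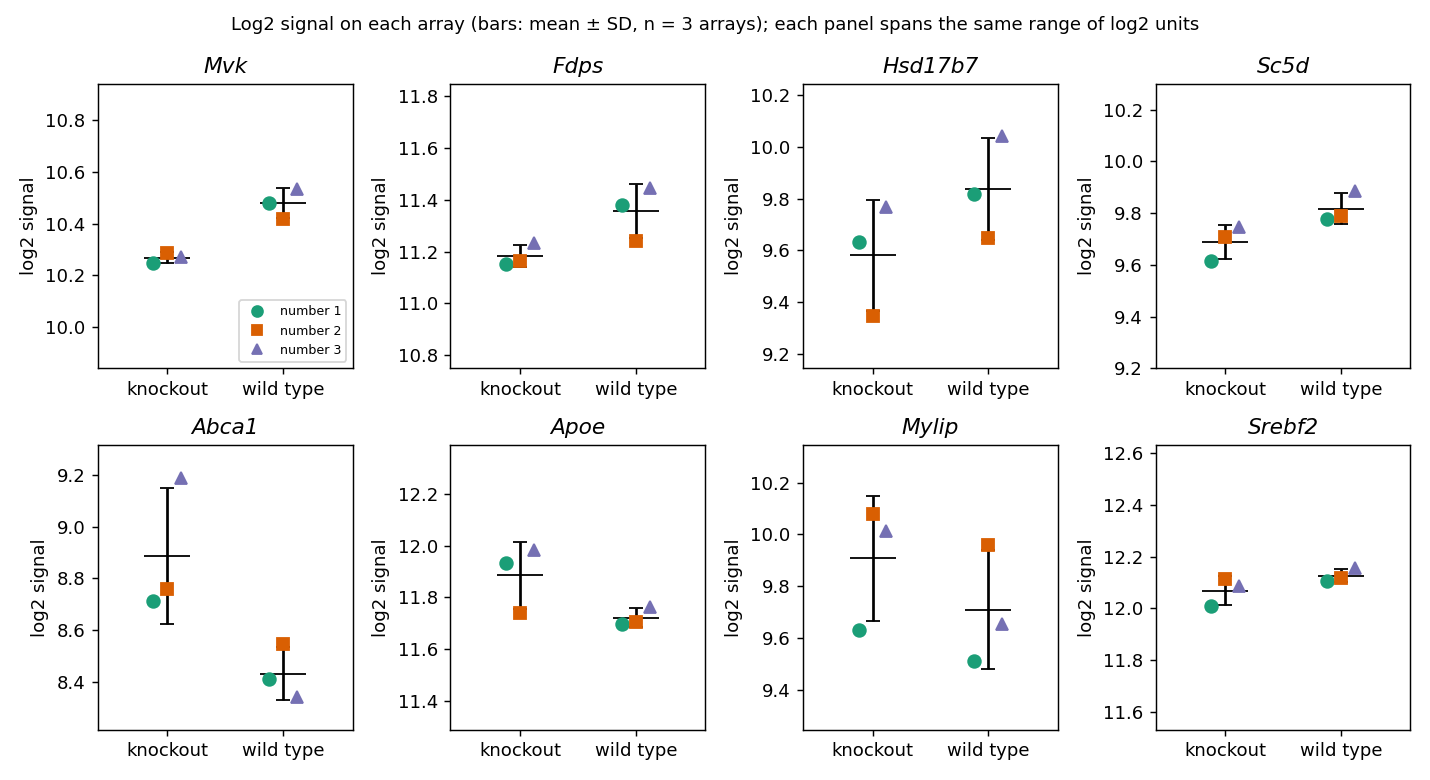
Log2 signal (y axis) of 8 genes on each array, knockout left and wild type right (x axis), with symbols for the replicate number and bars for mean ± SD (n = 3 arrays). The groups are apart in Mvk, Fdps, Sc5d and Abca1 and overlap in Hsd17b7, Apoe, Mylip and Srebf2.

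Leaving out single arrays moved the difference of 27 of the 34 genes by over 1.5 times in at least 1 case, and it turned the sign of 9 of them: Idi1, Fdft1, Tm7sf2, Ebp, Insig1, Insig2, Stard4, Fasn and Nr1h3. The other 7, which moved less, were Mvk, Fdps, Nsdhl, Sc5d, Scap, Abca1 and Apoe. Each of these fits left 1 replicate number with a single genotype and had no block. Differences between the replicate numbers therefore enter these values.

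Set against each other, the export and LXR genes stood 0.29 log2 units above the sterol synthesis enzymes in their median difference. On each array the mean of the 4 LXR targets minus the mean of the 17 enzymes, both relative to the genes' own means, was 0.057, 0.22 and 0.27 in the knockout, against -0.23, 0.018 and -0.32 in the wild type. All knockout arrays lay above all wild-type arrays in this contrast, with knockout replicate 1 and wild-type replicate 2 closest to each other. Since the genes were chosen with earlier results known, these values are a description and were not tested.

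Most markers of several other cell types also had higher signal in the knockout, though the ranges of the array means overlapped between genotypes in each list. The array values have no true zero, and mean signals of single markers ran between 6.32 and 11.86 for endothelium and between 6.31 and 8.97 for microglia. Of 10 endothelial markers, 9 had higher signal in the knockout, and their mean log2 signal per array ran between 8.12 and 8.45 in the knockout, against 8.05 and 8.16 in the wild type. Of 10 microglia and macrophage markers 9 were higher, with means between 7.67 and 8.0 in the knockout, against 7.62 and 7.74 in the wild type. Lens markers were higher for 10 of 12, with means between 7.56 and 7.82 in the knockout, against 7.49 and 7.62 in the wild type. Pigment epithelium markers were higher for 7 of 10, with means between 7.19 and 7.47 in the knockout, against 7.17 and 7.30 in the wild type. Markers of astrocytes and Muller glia were higher for 8 of 10, with means between 9.55 and 9.64 in the knockout, against 9.52 and 9.58 in the wild type, and neural retina markers for 7 of 11, with means between 11.74 and 11.85 in the knockout, against 11.76 and 11.82 in the wild type. Red cell markers were higher for 1 of 3, with means between 7.12 and 7.21 in the knockout, against 7.19 and 7.21 in the wild type.

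Knockout replicate 3, the array with the highest Abca1, also had the highest endothelial, microglial, lens, astroglial and neural retina means. Its pigment epithelium mean (7.19) was the lowest of the knockout arrays. Knockout replicate 2 had Abca1 above all wild-type arrays while its endothelial mean (8.12) lay below that of wild-type replicate 1 (8.16) and its microglial mean (7.67) below those of wild-type replicates 1 and 3 (7.68 and 7.74). Within each replicate number, however, the endothelial mean was higher in the knockout (8.30, 8.12 and 8.45, against 8.16, 8.09 and 8.05). The same held for microglial means (7.90, 7.67 and 8.0, against 7.68, 7.62 and 7.74) and for lens and pigment epithelium means. It did not hold throughout for astroglial, neural retina and red cell means. Defining markers that stood higher in the knockout on all arrays included Cdh5 of endothelium (difference 0.54, SE 0.14) and C1qb of microglia (0.47, SE 0.13), while Kdr (-0.070, SE 0.083) and Aif1 (-0.0021, SE 0.090) of the same lists did not. These 4 were picked after their values were seen. The part of these cells in the Abca1 and Apoe differences was not tested.

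**Figure D4:**
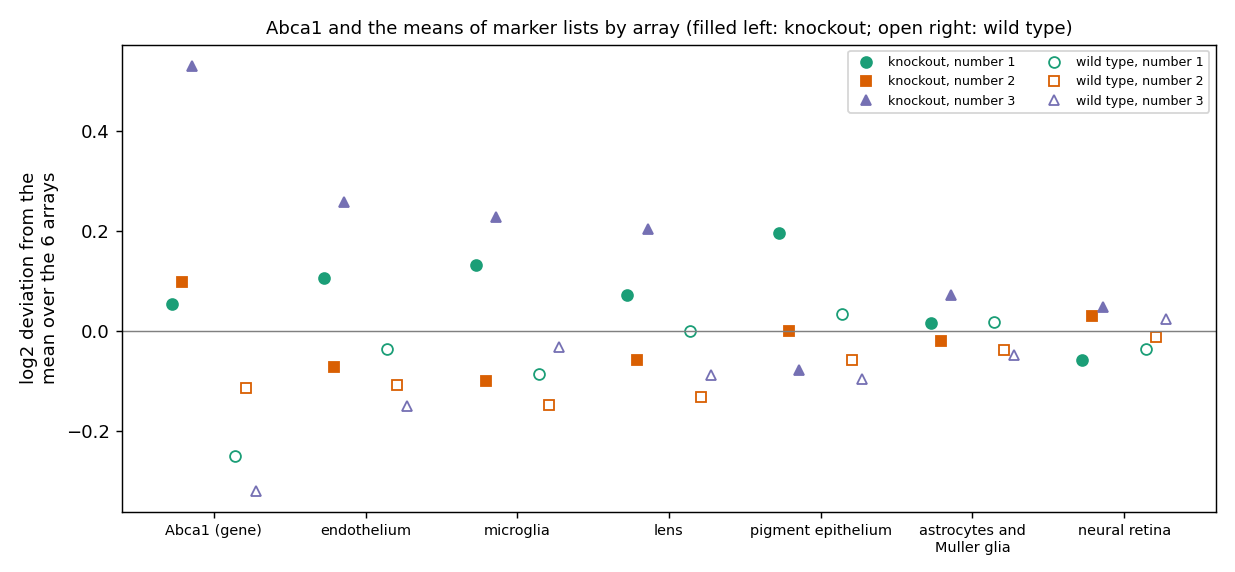
Log2 deviation from the mean over the 6 arrays (y axis) for Abca1 and for the mean of each marker list (x axis), with filled symbols for knockout arrays on the left and open symbols for wild-type arrays on the right. Knockout replicate 3 is highest for Abca1 and for every list shown except pigment epithelium. Neural retina means run between -0.0565 and 0.0493, and those of astrocytes and Muller glia between -0.0472 and 0.072.

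Further genes of these pathways were read from a separate list of 53, of which 49 were measured. Of these, limma called 0 at an adjusted p under 0.05 and had 0 at an unadjusted p under 0.05, against 3.43% of all clusters, and the blocked fit called 0 after adjustment, with a smallest adjusted p of 0.543. At an unadjusted p under 0.05 the blocked fit had 3 lower (Abca7, Slc25a1 and Lbr; background 4.36%) and 1 higher (Dgat2; background 4.46%). Their differences lay above 0 for 24 and below 0 for 25, with a median of -0.0027. Arrays did not overlap for 2 higher genes (4.08%) and 3 lower genes (6.12%), near the 4.08% and 4.35% of all clusters. Genes of fatty acid supply and desaturation lay below 0 in 13 of 19 (median -0.020), export and sterol handling genes above 0 in 15 of 24 (median 0.027), and 3 of 6 further genes of sterol synthesis and SREBP processing lay on each side.

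The genes with the smallest unadjusted p in that list were Abca7, Slc25a1 and Lbr among those lower in the knockout and Lcat, Vldlr and Dgat2 among those higher. Lbr, the lamin B receptor and a sterol reductase that can act in place of Tm7sf2, read 11.43, 11.47 and 11.49 in the knockout, against 11.60, 11.50 and 11.68 in the wild type (difference -0.13, SE 0.064). Slc25a1, which exports citrate from mitochondria to feed Acly, read 10.64, 10.76 and 10.54 in the knockout, against 10.85, 10.79 and 10.76 in the wild type (difference -0.15, SE 0.070). Abca7, a phospholipid transporter related to Abca1, differed by -0.12 (SE 0.056), opposite in sign to Abca1. In Lbr, Slc25a1 and Abca7 the groups did not overlap.

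Vldlr, a receptor that takes up particles with apolipoprotein E, read 10.80, 10.81 and 10.86 in the knockout, against 10.75, 10.71 and 10.69 in the wild type (difference 0.11, SE 0.055). Lcat, which esterifies cholesterol on lipoproteins, differed by 0.24 (SE 0.11), with knockout replicate 3 at 8.71 and the other knockout arrays at 8.38 and 8.22. Dgat2, which completes triglycerides, differed by 0.15 (SE 0.081). Each of these 6 genes had an adjusted p of 1.0 after rounding (limma).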

How the data were processed

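The authors deposited log2 signals per transcript cluster, made with Affymetrix Expression Console and RMA per the submitters' processing notes, which also name Transcriptome Analysis Console. Their versions and the annotation release are not stated there. RMA sets all arrays to 1 distribution, which removes a shift shared by most transcripts. Of 35557 clusters, the platform annotation gave 1 gene for 21789, several for 1621 and none for 12147. The 23410 with a gene were tested, without a signal filter, by limma 3.58.1 in R 4.3.3 (lmFit, eBayes, Benjamini-Hochberg over all 23410, threshold 0.05), after a test on simulated data. An exact permutation test of 3 against 3 cannot go below p = 0.1.

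The labels' replicate numbers were treated as pairs in a blocked fit, because deviations from the group means correlated at 0.476, 0.485 and 0.455 between arrays of the same number, each above 0.1. The labels do not say what the numbers mark, but call the samples biological replicates. Xist and Uty signal differed between the numbers in both genotypes.

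The members, lists and tests were chosen with earlier results of these data known. Values on every array were given for members with an unadjusted p under 0.05, members whose genotypes did not overlap, Srebf1, Srebf2, Insig1, Nr1h3 and the member with the highest mean in each role, and for up to 3 further pathway genes in each direction. Values of Hsd17b7, Abcg1 and Mylip, and other members named with differences, were added after they were seen. Alternatives covered scaling, the variance model, array weights, signal filters, unnamed clusters, the block, the choice of cluster and each array left out. Promoters were searched with Python 3.11.15.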

Additional observations from a re-analysis of the deposited data

How the results depend on the processing

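No member passed an adjusted p under 0.05 in limma under any alternative run, and the number with an unadjusted p under 0.05 was 3 in the reported fit, 5 with cyclic loess, 5 with a variance trend, 5 among clusters above the median signal, 12 with the replicate block and between 2 and 6 when single arrays were left out. The replicate block left every difference as it was and changed no adjusted call among the members. With it, the medians were -0.129 for sterol synthesis, -0.0835 for fatty acid synthesis and 0.164 for export and LXR genes, with a gap of 0.293. Leaving out single arrays, the sterol median ran between -0.146 and -0.0664, the fatty acid median between -0.114 and -0.0303, the export median between 0.115 and 0.261 and the gap between 0.214 and 0.361. The export median was 0.261 without knockout replicate 1 and 0.358 within replicate number 3 alone. Signs turned for 9 of the 34 members when single arrays were left out, among them 3 of those given on every array by rule: Fdft1 ran between -0.129 and 0.0385, Insig1 between -0.0731 and 0.113 and Nr1h3 between -0.0924 and 0.0413. Without both replicate 2 arrays, an alternative added after seeing the data, Fdft1 was at 0.014 and Insig1 at -0.0196. Within-number values and the export median without the receptor gene were added then too. The cause of these movements was not tested. Signal over background could not be judged from the deposited values.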
